A study of Mus musculus with 22 samples.

Results

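The enrichment of an mRNA in a ribosome pulldown over the RNA of the whole cochlea was compared between young mice (P8 and P14) and adult mice (6 and 10 weeks). The comparison is a difference of differences: the pulldown (IP) minus the whole cochlea (input) in adults, less the same in young mice, on a log2 scale. It used 18 of the 22 libraries of the series. At P8, P14 and 6 weeks there were 2 IP and 2 input libraries each, and at 10 weeks 3 of each, so that 4 young and 5 adult libraries stood on either side of each fraction. The 4 libraries of P28 were left out of the test and their values are given beside it.

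All mice carried one copy of a tamoxifen-dependent Cre recombinase at the prestin locus (Prestin-CreERT2/+) and one copy of the RiboTag allele of the ribosomal protein Rpl22 (RiboTagHA/+). Cre adds a haemagglutinin tag to Rpl22, and an antibody to the tag pulls down ribosomes with the mRNA they hold. The labels call the IP fraction enriched outer hair cells and translated mRNA, and the input total RNA of the cochlea. Mice under 21 days old received tamoxifen at 3 mg per 40 g of body weight and older mice 9 mg per 40 g, so that dose and age cannot be told apart. Which cells were tagged follows where the prestin locus drove the Cre. Each group was described by its submitters as duplicate or triplicate biological samples. Which animals gave which library is not stated. The p-values measure the spread between libraries of the same age and fraction. The spread between the ages within the young or the adult class does not enter them.

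Outer hair cells are the electromotile sensory cells of the organ of Corti that amplify sound. They begin to move and to receive their adult nerve supply in the second postnatal week, around the onset of hearing, while the surrounding cartilage, bone and extracellular matrix of the cochlea are still being laid down. A change in enrichment can come from either side of the ratio: from the RNA bound to tagged ribosomes or from the RNA of all other cochlear cells. In bulk samples, fewer cells of a type and less RNA per cell cannot be told apart.

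Library totals ran from 30757875 to 71023032 reads, and reads counted to genes other than Gm42418, a gene overlapping ribosomal RNA repeats, from 8199831 to 38785388. Reads outside genes took 20.2 to 47.7% of IP and 11.1 to 20.4% of input libraries. The library P8 input 2 stood apart with 58.3% of its gene reads on Gm42418, P14 IP 1 had 10.2% there against 1.22 to 3.65% in the other IP libraries used, 6 weeks input 2 had 18.6%, and 10 weeks IP 1 had the highest share outside genes. Outer hair cell markers were set beside the labels: the median member of a list of 12 was enriched by 1.30 on the log2 scale in young and 1.21 in adult pulldowns. Of the 12, 6 were called enriched in young and 8 in adult pulldowns, against 16.1% and 14.2% of all genes. Such enrichment was not particular to these markers. The median was 1.79 and 2.13 for nuclear long noncoding RNAs and 2.38 and 1.88 for microRNA pathway genes. Ocm, encoding the calcium buffer oncomodulin, and Ikzf2, encoding the outer hair cell transcription factor Helios, were enriched by 2.25 and 2.72 in young and by 2.33 and 2.32 in adult pulldowns. Slc26a5 (prestin) itself was low and uneven. In IP it measured 41.5 and 22.9 scaled CPM (reads per gene as a rate per library, after scaling) at P8, 3.63 and 7.02 at P14, 16.5 and 0.103 at 6 weeks and 100.3, 56.7 and 27.7 at 10 weeks, against 5.21 to 11.1 in the inputs. Its enrichment change of -0.41 was not called (SE 0.82, adjusted p = 0.866).

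Enrichment in adults differed from that in young mice for 40 of 20173 genes tested (0.198%), at an adjusted p under 0.05. The enrichment of 9 genes was higher in adults (0.0446% of those tested) and that of 31 was lower (0.154%). The 9 included genes of cartilage and elastic matrix, such as Col9a1, Eln and Cilp2, and the 31 included the transcription factor genes Zbtb7a, Ubtf, Zbtb4, Etv6 and Bhlhe41. Without an adjustment for the number of genes, 1095 were higher and 1527 lower at p under 0.05. The changes spanned 1.92 to 3.03 on the log2 scale among the 9 and 1.31 to 2.58 among the 31, and the median over all genes was -0.02.

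The number of calls depended on single libraries, on ages and on scaling. All 40 called genes kept their direction in every alternative setting that gave them a value. They were picked for large changes in libraries that the settings reuse, so that this was close to fixed in advance and supports nothing. Leaving out 1 library at a time gave 3 to 2731 calls, with 3 without P8 IP 2 and also without 6 weeks IP 1, and 2731 without P14 IP 2. The count stayed within 1.5 times of 40 only without P8 input 1 (37), P14 IP 1 (39) or 10 weeks IP 2 (30). With P14 alone as the young age limma called none (2910 at an unadjusted p under 0.05), against 80 with P8 alone. With 6 weeks alone as the adult age 1 gene was called, against 157 with 10 weeks alone. The main fit has 1 mean per age and fraction, so that differences between ages of a class do not count as spread. With 1 mean per class and fraction (4 group means), where they do, limma called none (1911 at an unadjusted p under 0.05). Scaling by library total, which moved the median of all genes to 0.17, called 12 genes higher and 8 lower, and quantile scaling 26 and 30.

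Enrichment of each IP library was also taken over the mean of the inputs of its age. For all 9 genes higher in adults, every adult pulldown lay above every young one, as it did for 604 of all genes tested (2.99%). For 28 of the 31 lower genes every adult pulldown lay below every young one, as for 784 of all genes (3.89%). The exceptions included Ubtf and Zfp385a. These counts come from the values that made the calls and are a description of them.

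**Figure D1:**
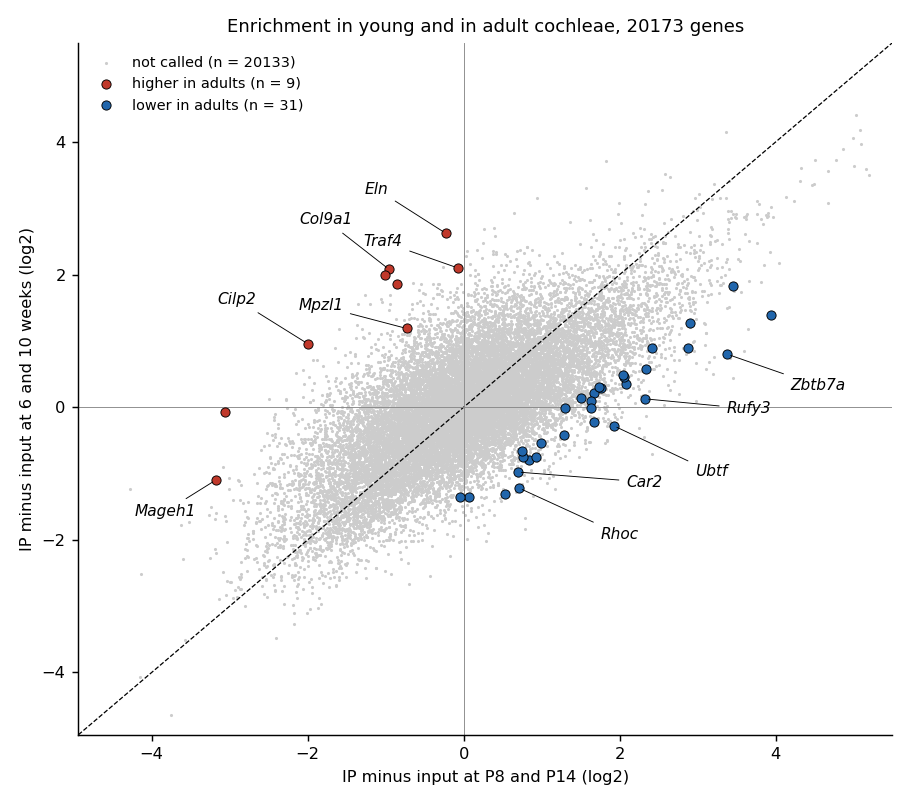
Each point is 1 of 20173 genes, with its enrichment (IP minus input, log2) in young cochleae on the x axis and in adult cochleae on the y axis, and the dashed line marks equal enrichment. The 9 genes called higher in adults (red) lie above the line and the 31 called lower (blue) below it, most of them at positive young values.

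Of the 31 genes lower in adults, 27 were called enriched in young pulldowns and 6 in adult ones, and 9 were called depleted in adults. Of the 9 higher, none was called enriched in young pulldowns, 5 were called depleted there, and 7 were called enriched in adults. Of all genes, 31.6% were called in young pulldowns (16.1% enriched and 15.5% depleted) and 29.4% in adult ones (14.2% and 15.2%). Both ratios are made from the libraries of the change itself, and nothing is read from these counts.

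Between young and adult mice, 17.0% of all genes were called in IP (8.17% rose and 8.82% fell) and 7.83% in input (4.59% rose and 3.24% fell). Of the 9 genes with higher enrichment in adults, the input level fell in 6 and the IP level rose in 4 (Mpzl1, Mageh1, Gm17024 and Gm37139) and fell in 1 (Col9a1). Of the 31 genes with lower enrichment, the IP level fell in 17 and the input level rose in 16, with both in M6pr and Zbtb4. No called gene lacked a call on both sides.

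**Figure D2:**
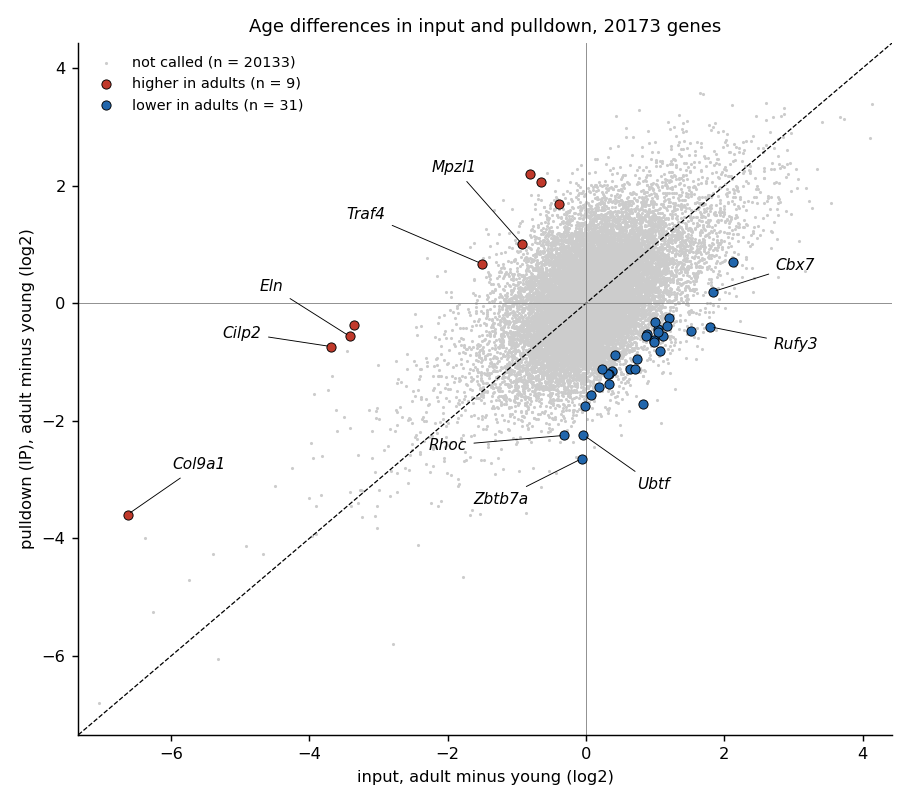
Each point is 1 of 20173 genes, with the adult minus young difference (log2) of input on the x axis and of IP on the y axis, and the dashed line marks equal differences. Col9a1 fell on both axes, by 6.63 in input and 3.59 in IP, Zbtb7a and Ubtf fell in IP with an input difference near 0, and Rufy3 and Cbx7 lie to the right of 0 on the input axis with IP differences of -0.40 and 0.19.

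Col9a1 encodes a chain of collagen IX, a collagen of cartilage and of the tectorial membrane that lies over the hair cells. The gene (ENSMUSG00000026147) lies on chromosome 1 at 24177610 to 24252684 in GRCm38. Its input level was 7166 and 5570 scaled CPM at P8 and 2232 and 1280 at P14, and 29.6 to 35.4 in all 5 adult inputs. In IP it was 2372 and 2153 at P8, 1873 and 845.1 at P14, and 86.1 to 189.7 in adults. Adult libraries were thus lower than all young ones in both fractions, but the fall was deeper in input, and the enrichment went from -0.95 to 2.08. The change of 3.03 (SE 0.35) had an adjusted p of 0.0005. Its call held in 32 of 35 alternative settings. It was lost with P14 alone as young, where the change was 2.50 (adjusted p = 0.073). It was also lost with 4 group means (adjusted p = 0.073) and with CPM as deposited (adjusted p = 0.369).

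Eln encodes elastin, the core protein of elastic fibres. Its input level was 153.2 and 125.5 scaled CPM at P8, 78.7 and 62.9 at P14, and 7.46 to 9.69 in adults. IP levels were 97.9, 70.1, 129.8 and 56.9 in young mice, 71.0 and 90.3 at 6 weeks, and 17.2, 58.0 and 63.5 at 10 weeks, so that young and adult pulldowns overlapped. The IP level was not called between ages (-0.57, adjusted p = 0.24) and the input level fell by 3.41 (adjusted p = 5.1e-07). The enrichment change was 2.85 (SE 0.46, adjusted p = 0.0147). Its adjusted p was 0.068 without P8 IP 2, and 0.063 and 0.055 without 6 weeks IP 1 and IP 2.

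Cilp2, a secreted protein of cartilage, fell in input from 68.9 to 114.3 scaled CPM in young libraries to 4.61 to 8.28 in adult ones, while its IP level was 8.35 to 33.3 in young and 5.97 to 19.8 in adult mice. Its change was 2.95 (SE 0.49, adjusted p = 0.0159), and 4 libraries left out singly, P8 input 2, P8 IP 2, 6 weeks input 2 and 6 weeks IP 1, each took its adjusted p to between 0.0519 and 0.0884. Kera, encoding keratocan, a proteoglycan of connective tissue, had a change of 2.98 (SE 0.55, adjusted p = 0.0339) that rests on very low adult values. Its input level was 8.00 to 21.9 scaled CPM in young and 0 to 0.526 in adult libraries, and its IP level was listed at 0 in 4 of the 5 adult pulldowns. At a pseudocount of 0.25 its adjusted p was 0.143, and it was called by neither count test.

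Traf4 and Mpzl1 were called at higher levels. Traf4 encodes an adaptor protein of the tumour necrosis factor receptor-associated family. It measured 61.0 to 112.8 scaled CPM in young and 25.2 to 30.9 in adult inputs, without overlap. Its IP level was 67.2 to 94.5 in young mice, 186.6 and 165.7 at 6 weeks and 46.8, 146.1 and 103.7 at 10 weeks, where 10 weeks IP 1 lay below all young pulldowns. The change was 2.18 (SE 0.36, adjusted p = 0.0159). Mpzl1, a cell-surface glycoprotein that signals through tyrosine phosphatases, was 228.4 to 384.9 scaled CPM in young and 134.7 to 163.3 in adult inputs, and 117.1 and 99.0 at P8, 322.1 and 213.8 at P14, 483.6 and 325.9 at 6 weeks and 202.7, 384.2 and 302.1 at 10 weeks in IP. Its IP level rose (adjusted p = 0.0035), its input level fell by 0.92 (adjusted p = 0.0085), and the change was 1.92 (SE 0.30, adjusted p = 0.0105). Without P8 IP 2 neither gene was called (adjusted p = 0.057 in both), nor without 6 weeks IP 1, at 0.073 for Traf4 and 0.063 for Mpzl1. Traf4 was also not called without 6 weeks input 2 (0.066) or 6 weeks IP 2 (0.055). Mageh1, of the melanoma antigen family, was depleted at both ages, by 3.18 in young and 1.10 in adult pulldowns (change 2.08, SE 0.43, adjusted p = 0.0457). Its call held in 11 of 35 alternative settings, and with P28 counted as adult its adjusted p was 0.525.

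**Figure D3:**
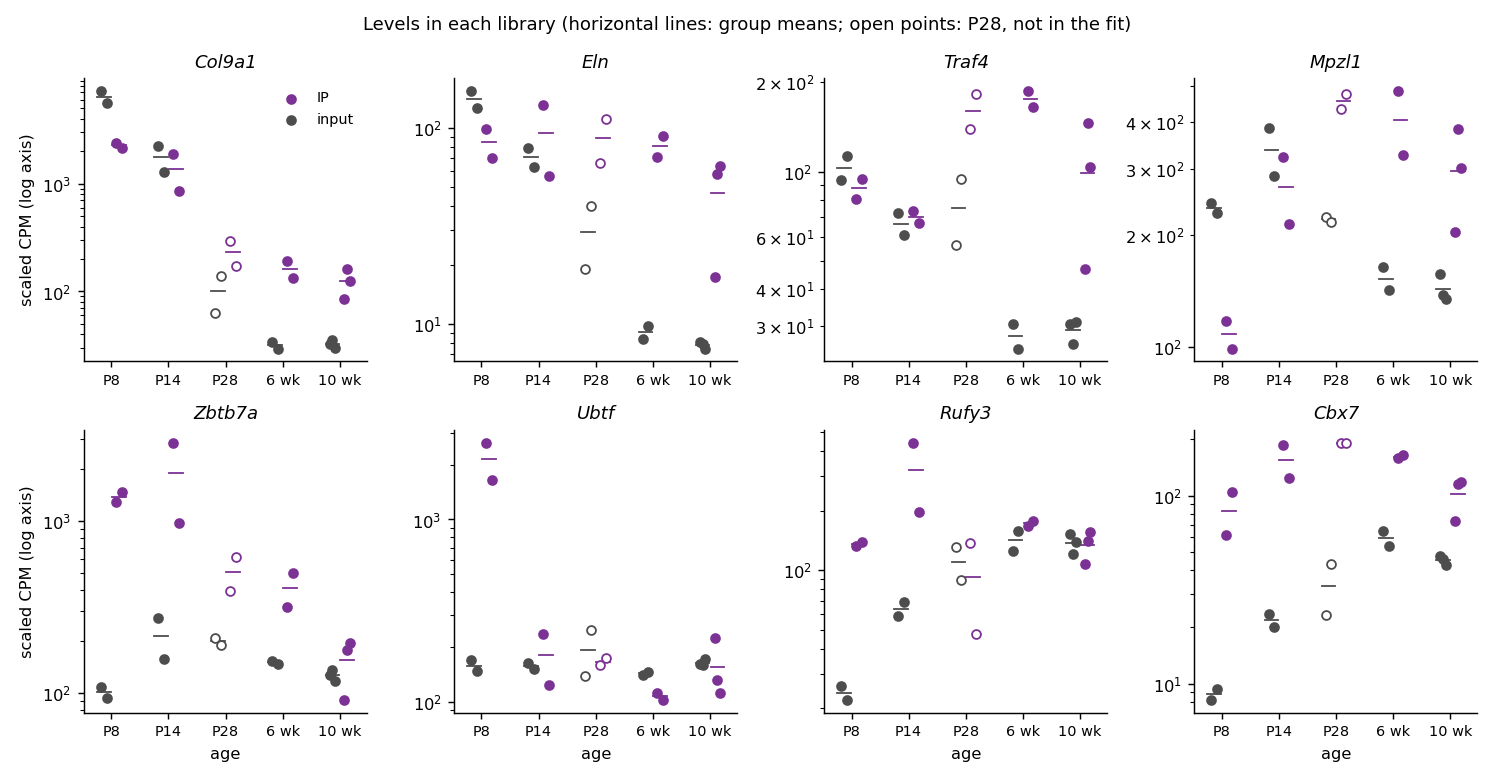
Scaled CPM of 8 genes in every library by age, on log axes, with IP in purple and input in grey. Horizontal lines mark the mean of each group. Open points are P28, scaled with all 22 libraries. Input levels of Col9a1 and Eln in adults lie far below those in young mice, Ubtf is high in the P8 pulldowns alone among IP groups, and Rufy3 and Cbx7 have inputs that are higher in every adult library than in every young one.

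A further 8 genes with higher adult values, the next by p after genes with predicted symbols or low levels were passed over, were not called: Col11a1, Dnmt3a, Bdh1, Setbp1, Bax, C1qtnf6, Hpn and Ralgps1, with adjusted p from 0.0513 to 0.0763. Dnmt3a encodes a DNA methyltransferase. Its input level was 291.6 to 531.4 scaled CPM in young and 72.7 to 107.7 in adult libraries, and its IP level was 511.5 to 1344 in young and 240.2 to 1216 in adult ones, with 10 weeks IP 1 the lowest. Its change was 2.21 (SE 0.47, adjusted p = 0.0513).

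Collagens and other matrix genes had the highest median change of the 36 gene lists. Of 22 members, all tested, 2 were called (Col9a1 and Eln), both higher, against 0.0446% of all genes, and 15 were higher and 2 lower (Fn1 and Col11a2) at an unadjusted p under 0.05, against 5.43% and 7.57% of all genes. The median change was 1.01, beside -0.02 over all genes, and lay between 0.62 and 1.27 in all alternative settings. The list was written with earlier results of these data known, and the settings reuse the same libraries. The counts, the median and its range were thus in part fixed in advance and support nothing. The input level fell in 20 and the IP level in 17 of the 22, against 3.24% and 8.82% of all genes. The median enrichment was -0.19 in young and 0.97 in adult cochleae.

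The changes of single members ran from -1.20 in Fn1, encoding fibronectin, to 3.03 in Col9a1. Among basement membrane collagens, which line the basilar membrane and blood vessels, Col4a1 changed by 1.13 (SE 0.31, adjusted p = 0.135), Col4a3 by 1.31 (SE 0.46) and Col4a4 by 0.90 (SE 0.31). Of fibril-forming collagens, Col5a1 changed by 1.01 and Col5a2 by 1.02, and of the microfibril genes, Fbn1 by 1.24 and Fbn2 by 1.42. None of these was called. Col11a1 and Col11a2, which encode chains of the same collagen of cartilage and tectorial membrane, went apart. Col11a1 fell in input from 605.4 to 1867 scaled CPM in young to 46.4 to 70.7 in adult libraries, with a change of 1.45 (SE 0.31, adjusted p = 0.0513). Col11a2 fell further in IP, from 7014 to 14830 in young to 518.6 to 1365 in adult pulldowns, with a change of -0.80 (SE 0.34, adjusted p = 0.333). The difference between the 2 genes was not tested.

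Markers of bone and cartilage cells fell with the matrix genes. Their summed level over 14 genes was 4731 to 24469 scaled CPM in young and 737.4 to 1321 in adult IP libraries, and 9287 to 22581 and 3744 to 4361 in input. The input level of 12 and the IP level of 10 of the 14 fell, against 3.24% and 8.82% of all genes. None was called for its enrichment change, and their median change was 0.33. Fibrocyte and mesenchyme markers summed to 9022 to 19841 in young and 4135 to 6526 in adult IP libraries and to 17598 to 39253 and 15712 to 19682 in input, with a median change of -0.28 over 13 genes. Their part in the change of the matrix genes was not tested.

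**Figure D4:**
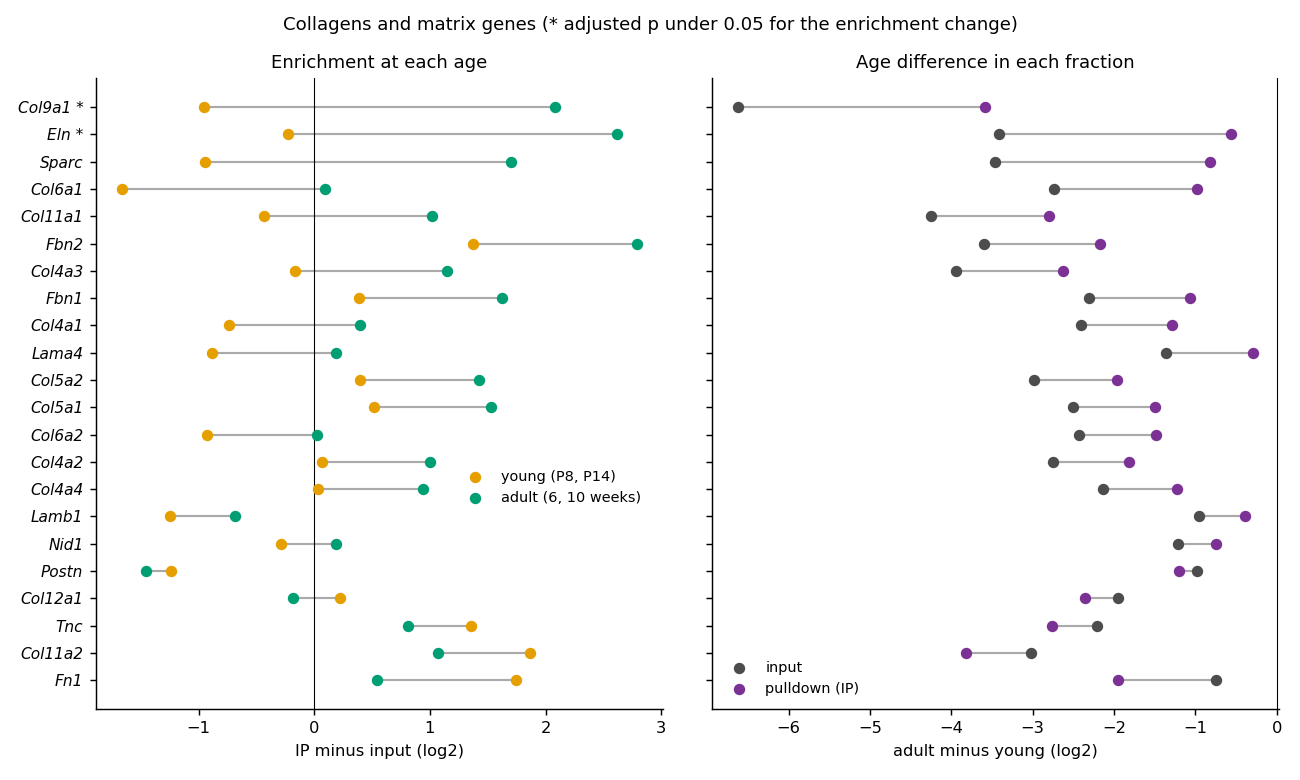
The 22 collagen and matrix genes, ordered by enrichment change, with their enrichment (IP minus input, log2) in young and adult cochleae at left and the adult minus young difference (log2) of input and IP at right. In 17 of the 22 the adult value lies to the right of the young one, and at right every difference is negative, with the input the lower of the pair in the same 17.

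Zbtb7a encodes a POK-family zinc finger transcription factor that mostly represses its targets. The gene (ENSMUSG00000035011) lies on chromosome 10 at 81135220 to 81152995. Its IP level was 1293 and 1478 scaled CPM at P8, 2868 and 974 at P14, 318.6 and 500.1 at 6 weeks, and 91.4, 178.5 and 195.7 at 10 weeks. Every adult pulldown was lower than every young one, and those at 10 weeks were lower than those at 6 weeks. The inputs stayed between 93.7 and 273.4 throughout. The IP level fell by 2.64 (adjusted p = 4.2e-06), the input difference was -0.06 (adjusted p = 0.95), and the enrichment went from 3.38 to 0.80 (change -2.58, SE 0.40, adjusted p = 0.0105). The adjusted p was 0.057 without P8 IP 2 and 0.063 without 6 weeks IP 1. Among other losses, it was 0.142 with P14 alone as young, 0.610 with 6 weeks alone as adult and 0.098 with 4 group means. The call held in 28 of 35 alternative settings.

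Ubtf encodes the upstream binding factor that opens ribosomal RNA genes for RNA polymerase I. The gene (ENSMUSG00000020923) lies on chromosome 11 at 102304560 to 102319742. Its inputs lay between 140.3 and 172.0 scaled CPM at every age. Its IP level was 2645 and 1655 at P8, 234.2 and 123.8 at P14, 111.0 and 102.1 at 6 weeks, and 224.0, 131.6 and 111.3 at 10 weeks. The P8 pulldowns alone stood out, and P14 and adult pulldowns overlapped. Enrichment was 3.73 at P8 and 0.12 at P14. The change of -2.20 (SE 0.32, adjusted p = 0.00659) rests on P8. With P14 alone as the young age it was -0.40 (adjusted p = 0.658), and with 4 group means its adjusted p was 0.415.

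Of 22 ZBTB genes, 2 were called lower (Zbtb7a and Zbtb4), against 0.154% of all genes, with a list median of -0.45. At an unadjusted p under 0.05, 5 were lower and 1, Zbtb2, was higher, against 7.57% and 5.43% of all genes. Zbtb4, whose product binds methylated DNA, was 256.1 to 723.5 scaled CPM in young and 158.1 to 242.7 in adult pulldowns and rose from 78.8 to 181.9 in young to 208.5 to 256.9 in adult inputs (change -1.89, SE 0.32, adjusted p = 0.0159). Its call held in 24 of 35 alternative settings. Zbtb18 changed by -1.27 (adjusted p = 0.170), Zbtb16 by -1.18 (adjusted p = 0.200) and Zbtb7b by -1.03 (adjusted p = 0.283). Of 15 genes of the RNA polymerase I machinery tested, Ubtf was called and 4 were lower at an unadjusted p under 0.05, the others being Twistnb (-1.99), Polr1b (-1.54) and Polr1a (-0.92), subunits of the enzyme. The list median was -0.06, beside -0.02 over all genes, and apart from Ubtf none of these passed the adjusted test. Of 18 ribosome biogenesis factors, none was called. Zbtb7a and Ubtf, and the lists that hold them, were chosen with earlier results of these data known. The counts and medians of these lists are thus in part fixed by the choice and support nothing.

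In a second group of genes the input rose and the IP difference was not called. Rufy3, whose product acts in neuronal polarity and on lysosomes, rose in input from 25.8 and 22.1 scaled CPM at P8 and 58.8 and 69.2 at P14 to 120.7 to 158.1 in adults, without overlap. Its IP level was 133.2 to 442.6 in young and 107.0 to 178.3 in adult mice. The input difference was 1.80 (adjusted p = 1.3e-05) and the enrichment change -2.20 (SE 0.31, adjusted p = 0.00591). Rufy3 was called in 31 of 35 alternative settings. Of the genes described next, Car2 was called in 24, Cbx7 in 12, Sema7a in 11 and Lpin1 in 10.

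Cbx7, a chromobox subunit of Polycomb complexes, rose in input from 8.22 to 23.4 scaled CPM in young to 42.9 to 64.6 in adult libraries, and its IP level was 61.8 to 186.5 and 73.2 to 163.5. Its enrichment fell from 2.91 to 1.27 (change -1.64, SE 0.32, adjusted p = 0.0384) and was still positive in adults. Sema7a, a membrane-anchored semaphorin of axons, went from 45.3 to 205.2 in young to 213.9 to 301.2 in adult inputs (change -1.99, SE 0.41, adjusted p = 0.0439). Car2, encoding carbonic anhydrase II, was 190.0 and 187.4 in P8 inputs, 1096 and 880.4 at P14 and 855.9 to 1038 in adults, so that its rise in input lay between P8 and P14. In IP it was 325.1 and 454.1 at P8, 1695 and 947.4 at P14 and 368.3 to 616.9 in adults (change -1.67, SE 0.29, adjusted p = 0.0159). Lpin1, a phosphatidate phosphatase of lipid synthesis, changed by -1.64 (adjusted p = 0.0439), with a rise in input of 0.98 and an IP difference of -0.66 that was not called. Markers of spiral ganglion neurons rose in both fractions: 11 of 15 in input and 11 in IP, against 4.59% and 8.17% of all genes. Their summed level was 536.5 to 3649 scaled CPM in young and 4026 to 6088 in adult inputs. None of them was called for its enrichment change, the list median was -0.33, and the part of neurons in the rise of genes such as Rufy3 was not tested.

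In a further group the IP level fell at an input that was not called. These calls held in 13 (Clcn3) to 22 (Tgoln1) of 35 alternative settings, with Rhoc in 16, Gpd2 in 17 and Etv6 and Mcfd2 in 19. Rhoc, a small GTPase of the actin cytoskeleton, was 103.8 to 336.6 scaled CPM in young and 34.3 to 50.9 in adult pulldowns, and 94.2 to 161.2 and 86.4 to 109.5 in inputs (change -1.93, SE 0.37, adjusted p = 0.0384). Etv6, an ETS-family repressor, was 116.9 to 284.7 in young and 50.3 to 75.3 in adult pulldowns at inputs of 42.0 to 49.4 throughout (change -1.73, SE 0.33, adjusted p = 0.0377). Tgoln1, a protein of the trans-Golgi network, fell by 1.12 in IP (change -1.83, SE 0.32, adjusted p = 0.0159). Clcn3, an endosomal chloride and proton exchanger, fell by 1.12 in IP (change -1.76, SE 0.35, adjusted p = 0.0386). Mcfd2, which helps to carry proteins out of the endoplasmic reticulum, fell by 1.38 in IP (change -1.71, SE 0.30, adjusted p = 0.0159). Gpd2, the mitochondrial glycerol-3-phosphate dehydrogenase, fell by 1.57 in IP (change -1.63, SE 0.31, adjusted p = 0.0377). Among genes that moved on both sides, M6pr, the cation-dependent mannose 6-phosphate receptor that sorts lysosomal enzymes, fell by 0.95 in IP and rose by 0.73 in input (change -1.69, SE 0.29, adjusted p = 0.0159). Its call held in 20 of the 35 settings. Other genes called lower were Abtb1, Mylip, Ppm1k, Lin7c, Zwint, Dgke, Msantd4, Bhlhe41, Crebl2, Zfp385a, Enpp5, Plekhb2 and Tns3, with changes of -1.62 to -1.31, and Gm10033, annotated as a pseudogene. Their calls held in 9 (Zwint, Zfp385a and Gm10033) to 15 (Dgke and Enpp5) of the 35 settings.

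None of 12 outer hair cell markers was called for its enrichment change, against 0.198% of all genes, a share beside which 0 of 12 says nothing about the list. Their median change was -0.39, that of 10 inner hair cell markers -0.49 and that of 14 markers shared by hair cells -0.37, beside -0.02 over all genes. Such medians were not particular to hair cells. Stria vascularis markers had -0.64, heat shock and chaperone genes -0.39 and supporting cell markers -0.31. Other lists lay above 0, such as Schwann cell and myelin markers (0.04) and ribosome biogenesis factors (0.14). The nicotinic receptor subunit gene Chrna10, of the efferent synapse, changed by -1.38 (SE 0.64, adjusted p = 0.369) and Lbh, a transcription cofactor of outer hair cells, by -0.86 (SE 0.36, adjusted p = 0.312). Ocm fell alike in IP (by 1.36) and input (by 1.44), for a change of 0.08 (SE 0.40, adjusted p = 0.957). Ikzf2 changed by -0.40 (SE 0.42, adjusted p = 0.708) and Rpl22, the tagged gene's symbol, by -0.52 (SE 0.27, adjusted p = 0.435). With standard errors of this size, changes of about the size of these could not be told from 0. The median change of 28 genes of the hair bundle and mechanotransduction was -0.24. None of these or of the shared markers was called, and 33 of the 36 lists held no called member, at the same share of 0.198% over all genes.

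Genes known as let-7 targets and oncofetal genes had the highest median enrichment of the 36 lists in young cochleae and a lower one in adults. The median member of 28 was enriched by 2.81 in young and 1.69 in adult cochleae, with a median change of -0.96. None was called, against 0.198% of all genes, and 6 were lower and none higher at an unadjusted p under 0.05, against 7.57% and 5.43% of all genes. Cdc25a, a cell cycle phosphatase, was 94.2 to 318.3 scaled CPM in young and 22.1 to 57.2 in adult pulldowns at inputs of 11.9 to 28.4 (change -2.04, SE 0.43, adjusted p = 0.0523). Zcchc3, which encodes a nucleic acid-binding protein, was 450.1 to 1282 in young pulldowns, 498.7 and 584.1 at 6 weeks and 25.3, 307.5 and 296.8 at 10 weeks (change -1.69, SE 0.70, adjusted p = 0.317). Igdcc3 was 288.6 to 1044 in young pulldowns, and 10.4, 93.6 and 63.1 at 10 weeks (change -1.57, SE 0.68, adjusted p = 0.337). In both, 10 weeks IP 1 was far below the other pulldowns of its age.

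These lists led to the sequences that microRNAs bind. A microRNA guides the silencing complex to mRNAs that pair with its seed, bases 2 to 8 from its 5′ end, mostly in the 3′ untranslated region, and lowers their stability and translation. Members of the miR-29 family are known to target collagens, elastin and Dnmt3a. MicroRNAs were not measured in the libraries used here. Mature sequences are those of RefSeq, with the seed in capitals, and are shown for the families at the top and bottom of the order described next.
miR-29a-3p: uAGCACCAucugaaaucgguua
miR-29b-3p: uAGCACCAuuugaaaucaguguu
miR-29c-3p: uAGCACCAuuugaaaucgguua
let-7a-5p: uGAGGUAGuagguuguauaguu
miR-19a-3p: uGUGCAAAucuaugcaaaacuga
miR-19b-3p: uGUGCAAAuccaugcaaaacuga
miR-130a-3p: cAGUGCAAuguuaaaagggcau
The 3 miR-29 members share 1 seed, and the seed match in an mRNA reads TGGTGCT. The match of let-7 reads CTACCTC. That of miR-19 reads TTTGCAC. That of miR-130 reads TTGCACT and overlaps with the one of miR-19 in 6 bases, so that 1 stretch of mRNA can hold both.

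The 3′ untranslated region of each gene was searched on its sense strand for the 7-base match of every mature microRNA, in 12051 genes with a mean of at least 5 scaled CPM. Of the matches, 1345 were held by at least 200 genes. For each, the median enrichment change of the genes without a match was subtracted from that of the genes with one. The search was chosen after the values were seen, the matches are sequence descriptions and not measured binding, and no test was made.

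The miR-29 match had the highest difference of the 1345 and the let-7 match the lowest. The 2027 genes with a miR-29 match (16.8%) had a median change of -0.04 and the others of -0.13, a difference of 0.10. For let-7 (1356 genes, 11.3%) the difference was -0.20, and for miR-19 and miR-130 it was -0.20 in each. These values are to be read against the other matches and not against 0. The 2nd highest difference was 0.05, for the miR-767 match ATGGTGC. It shares TGGTGC with the miR-29 match, so that 1 stretch of mRNA can hold both. The 5th highest difference was already 0.0008, and miR-30, 769th from the highest, lay at -0.09. In enrichment itself, genes with a let-7 match stood highest of all matches at both ages, above genes without by 0.80 in young and 0.60 in adult cochleae. Leaving out 1 library at a time gave 0.061 (without P14 IP 2) to 0.16 (without 10 weeks IP 1) for miR-29, which was 0.065 without 10 weeks IP 2. It gave -0.24 to -0.12 for let-7, nearest to 0 without 10 weeks IP 1, and -0.26 to -0.14 for miR-19. Without a minimum level, over 15298 genes and 1358 matches, miR-29 was again the highest, while let-7 was 9th, miR-19 6th and miR-130 5th from the lowest. The miR-29 difference was 0.04 with P14 alone as young and 0.04 with 10 weeks alone as adult, and 0.17 in each of the opposite cases. The let-7 difference was -0.09 with 6 weeks alone and -0.31 with 10 weeks alone.

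For miR-29 the larger difference was in the inputs. In input, genes with its match were lower in adults than genes without, by 0.14, the lowest of the 1345 matches, and in IP by 0.03. For let-7 it was in the pulldowns, with -0.22 in IP and 0.00 in input. By the number of miR-29 matches, the median change was -0.13 in 10024 genes with none, -0.05 in 1689 with 1, -0.02 in 266 with 2 and 0.21 in 72 with 3 or more, and the median input difference went from 0.06 to -0.42 along the same classes. Without 51 collagen and matrix genes the difference in change was 0.09. The families were picked by the change in these same genes, so that these values are a description and support nothing. The part of the matrix genes was not tested.

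Length of the untranslated region moved with the change as well. In 5 equal classes of length, the median change fell from 0.06 in the shortest regions to -0.25 in the longest. Within all 5 classes genes with a miR-29 match lay above those without, by 0.15 to 0.26, and genes with a let-7 match lay below, by 0.05 to 0.39. For miR-19 the values were -0.05 to -0.31. The families were picked by their change in these same genes, so that these signs are in part fixed by the choice and support nothing. The part of length was not tested.

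In single pulldowns the order was less clear than over the groups. Genes with a miR-29 match were more enriched than those without by 0.37 and 0.36 at P8, 0.69 and 0.44 at P14, 0.56 and 0.68 at 6 weeks and 0.24, 0.59 and 0.56 at 10 weeks, so that young and adult pulldowns overlapped. For let-7 the values were 0.71 to 0.95 in young and 0.15 to 0.76 in adult pulldowns, which also overlapped. For miR-19 they were 0.50 to 0.80 and 0.05 to 0.48, without overlap. The families were picked by their change in these same libraries, so that a separation of the ages is in part fixed by the choice and supports nothing. The pulldown 10 weeks IP 1 was the lowest of the adult ones for all 3 families.

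**Figure D5:**
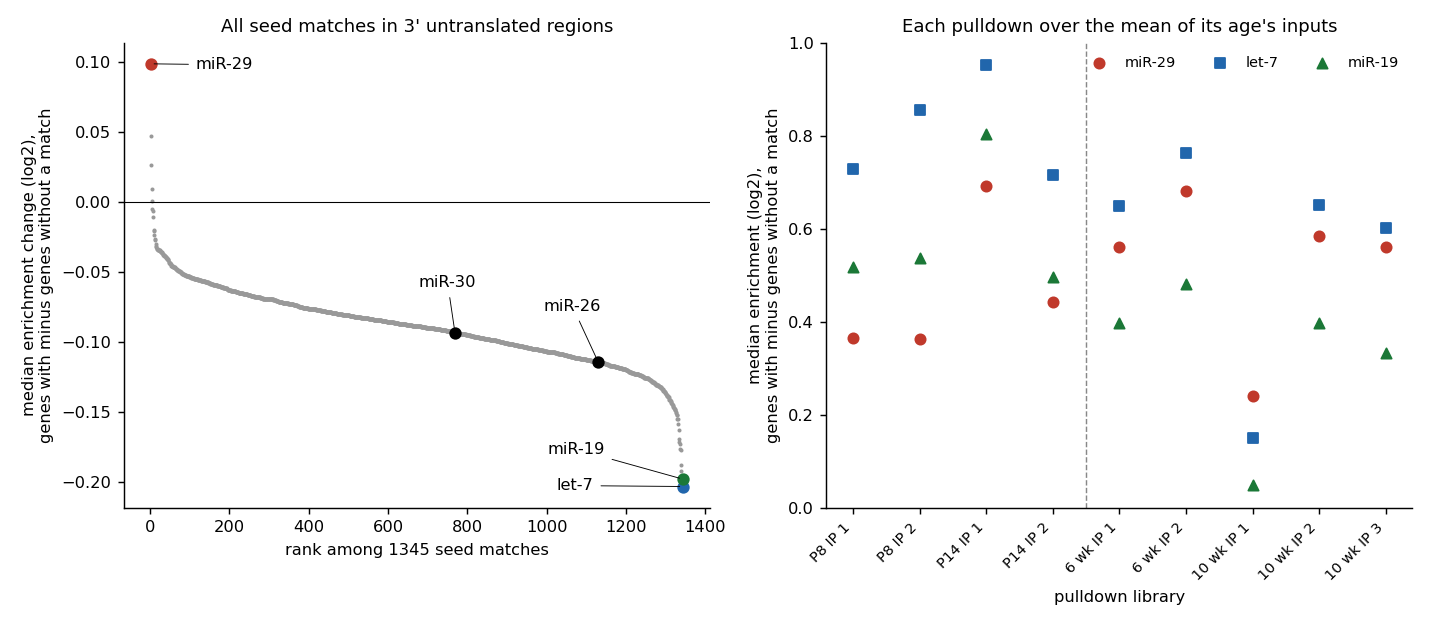
At left, each point is 1 of 1345 seed matches, ordered by the median enrichment change (log2) of genes with the match minus that of genes without, and at right the same difference in the enrichment of each pulldown library over the mean inputs of its age is shown for 3 families. The miR-29 match lies highest at 0.10, let-7 and miR-19 lie at -0.20, and in the library 10 weeks IP 1 all 3 families are low.

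Of the 9 genes higher in adults, 7 had a 3′ untranslated region in the annotation, and 5 of these held a miR-29 match (71.4%, against 16.8% of all genes searched): Col9a1, Eln, Cilp2, Mpzl1 and Traf4. None of the 7 held a match of let-7, miR-19 or miR-130. Of the 31 lower genes, 30 had a region, and 5 held a miR-29 match (16.7%, the share of all genes being 16.8%): Ubtf, Zbtb7a, Enpp5, Lpin1 and Plekhb2. Of the same 30, 11 held a miR-19 match (36.7%, against 14.3%), 11 a miR-125 match (36.7%, against 16.9%), 11 a miR-181 match (36.7%, against 19.8%), 9 a miR-130 match (against 12.9% of all genes) and 2 a let-7 match (6.67%, against 11.3%). The median length of the region was 2295 bases in the lower genes, 717 in the higher ones and 1319 over all genes searched. The part of length in these shares was not tested. Of the 22 matrix genes, 12 held a miR-29 match, with a median change of 1.18, and 10 held none, with a median of 0.13. Sparc (2.64) and Col6a1 (1.76) were among those without a match. The families were picked by the change in these same libraries, after the matrix genes were seen. These shares and medians are thus in part fixed by the choice and support nothing. The miR-29 matches of the 5 higher genes, and of Ubtf among the lower ones, are shown with 12 bases before and 4 after, in the sense of the gene and on GRCm38, with the match in capitals. Each lies within 1 exon of the 3′ untranslated region used.
Col9a1, chr1:24251999-24252021, plus strand: atttagagcaacTGGTGCTattc
Col9a1, chr1:24252319-24252341, plus strand: attcaataaaatTGGTGCTtaaa
Eln, chr5:134703733-134703755, minus strand: cctcatcaacgtTGGTGCTactg
Eln, chr5:134703486-134703508, minus strand: tccaagggaaatTGGTGCTacat
Eln, chr5:134703473-134703495, minus strand: ggtgctacatgtTGGTGCTtctt
Mpzl1, chr1:165592773-165592795, minus strand: accatctccttgTGGTGCTgaga
Mpzl1, chr1:165592753-165592775, minus strand: agaccgtgtataTGGTGCTagtg
Traf4, chr11:78159743-78159765, minus strand: ggtgcctccaatTGGTGCTtcag
Cilp2, chr8:69880427-69880449, minus strand: aggatggttccaTGGTGCTtgga
Ubtf, chr11:102304773-102304795, minus strand: ggtgggacatgtTGGTGCTgtca
The last 2 stretches of Eln overlap, and the one that comes last begins inside the match of the one before. Of the genes lower in adults, Rufy3 and Zbtb4 show the miR-19 match.
Rufy3, chr5:88642046-88642068, plus strand: aattcttacaatTTTGCACctgc
Zbtb4, chr11:69780611-69780633, plus strand: cctaatccctaaTTTGCACtagt
Zbtb4, chr11:69781091-69781113, plus strand: ctcctctgtctcTTTGCACtttt
Both in Zbtb4 are followed by T, so that each also holds the miR-130 match.

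At P28, between the young and adult ages and not used in the test, enrichment lay nearer to the adult than to the young value for 7 of the 9 higher genes and 27 of the 31 lower ones. The share over all genes was not counted, so that nothing is read from these counts. P28 values were scaled with all 22 libraries, and those of the other ages with the 18 of the test. The median of the 9 was -1.33 at P8, -0.43 at P14, 1.05 at P28, 1.38 at 6 weeks and 1.58 at 10 weeks. The median of the 31 was 1.85, 1.49, 0.16, 0.24 and -0.13 at the same ages. Zbtb7a was enriched by 1.30 at P28 and Col9a1 by 1.26. Cbx7 (2.55), Mylip (1.71) and Msantd4 (0.15) were nearer to their young values, as were Mageh1 and Gm17024. P28 was profiled in 2 libraries per fraction, and with these counted as adult 25 genes were called.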

How the data were processed

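The deposited values are CPM per gene (reads of a gene as a share of the library's reads, at a fixed library size), 1 table per library, which the authors made from directional libraries aligned with TopHat to GRCm38, per the labels' protocols and the submitters' processing notes. The counting tool and its use of strand were not given in the sources used. The CPM steps gave whole reads for 100% of values (tolerance 0.01) over 49671 genes, and 5 entries that name no gene, with 32.9 to 72.3% of reads, were left out of library sizes and tests.

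The values were rescaled over genes without Gm42418 by TMM factors (edgeR 4.0.16), giving scaled CPM, and genes with at least 1 CPM in 2 of 18 libraries were kept. limma 3.58.1 in R 4.3.3, with a trended variance, was fitted to log2(scaled CPM + 1) with 8 group means. Ages weighed equally within young and adult. All tests are two-sided with Benjamini-Hochberg adjustment over 20173 genes, and a gene is called at an adjusted p under 0.05. Fold changes on this scale understate those of low genes. A gene can share reads with overlapping or near-identical genes.

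Always named were Ubtf, Zbtb7a, Slc26a5, Ikzf2, Ocm and Rpl22. To these came the 15 largest changes each way among called genes with a mean of at least 5 scaled CPM in their highest group and no predicted symbol, filled by the smallest p where fewer were called, and members of the gene lists. Other called genes, and list members outside that rule, were named after their values were seen. The genes, lists and comparison were chosen with earlier results of these data known. The use of single ages, the search for seed matches, its minimum level and families and the split of the matrix genes were chosen after seeing the data. Regions searched are the longest 3′ untranslated region per gene in GENCODE M21, and microRNA sequences are from RefSeq. edgeR and DESeq2 1.42.0 on recovered reads were alternatives. Scripts were tested on simulated data. Results that name items withheld for evaluation are not reported here.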

Additional observations from a re-analysis of the deposited data

Results flagged for a closer look

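The enrichment of 9 genes was higher and that of 31 lower in adults, by a test of the difference between the 2 age classes itself. Among 70 groups of 4 or 5 pulldowns looked at, 11 held a value far from the others, where chance gives about 1 in 20.

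Among named genes, the log2 enrichment of single pulldowns over the mean inputs of their age stood apart for Zbtb7a in P14 IP 2 (2.22, the lowest young value), Gpd2 in P14 IP 2 (0.13), Ubtf in 10 weeks IP 1 (0.46, the highest adult value), Cbx7 in 10 weeks IP 1 (0.68), Eln in 10 weeks IP 1 (1.05) and Kera in 6 weeks IP 1 (0.65, the 1 adult pulldown with any Kera reads). Of the differences between genes with and without a seed match, those in 10 weeks IP 1 stood apart from the other adult pulldowns for let-7 (0.15), miR-29 (0.24), miR-125 (0.12) and miR-30 (0.21), and that in P14 IP 1 from the other young ones for miR-19 (0.80). These are the pulldowns with the highest share of reads outside genes and the highest share on Gm42418, and the part of either in these values was not tested.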

How the results depend on the processing

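The 40 calls for the enrichment change became 69 without a filter on low values, 20 with scaling by totals, 24 with array weights, 25 with P28 counted as adult, 72 with edgeR and 563 with DESeq2 on recovered reads, and 4 without P8 input 2 and P14 IP 1 together. limma called 0 with CPM as deposited (819 at an unadjusted p under 0.05), 0 with 4 group means in place of 8 (1911) and 0 with P14 alone as young (2910). They became 80 with P8 alone, 1 with 6 weeks alone and 157 with 10 weeks alone. Leaving out single libraries gave 3 to 2731 calls for the change, 5586 to 8162 for young enrichment, 4095 to 7542 for adult enrichment, 1952 to 7431 for the pulldown and 875 to 2588 for the input. Calls of young enrichment, 6384 in all, were 2671 with CPM as deposited, 3637 with array weights and 3372 with P8 alone. Those of adult enrichment, 5922 in all, were 2730, 10367 and, with 6 weeks alone, 2413. For the pulldown, 3427 calls became 1335 with CPM as deposited, 864 with array weights, 2112 with 4 group means, 2260 without P8 input 2 and P14 IP 1, 1942 with P28 as adult and 1075 with 6 weeks alone. For the input, 1579 became 810, 2714 and 711 under the same 3 settings, 265 with P14 alone and 674 with 6 weeks alone. The causes were not tested.

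With the replicate number as a block (replicate block) 26 genes were called, 7 higher and 19 lower, 18 of them among the 40. Deviations of same-numbered IP and input libraries correlated by 0.084 at P8, 0.10 at P14, 0.37 at 6 weeks and 0.098 to 0.22 at 10 weeks. All were positive, and with 2 libraries per group both numbers give the same value. Correlations of this size cannot decide whether same-numbered libraries come from the same animals. The labels do not state it, and the main fit did not use the numbers.

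Of the 4 reference genes that were not called, Slc26a5, Ikzf2 and Ocm changed sign in some settings and Rpl22 in none. Slc26a5 was 0.13 with edgeR, 0.23 with DESeq2, 0.84 with P14 alone and 1.25 with 10 weeks alone, and -1.40 to 0.58 without single libraries. Ikzf2 was 0.19 with P8 alone. Ocm was -0.17 with CPM as deposited, -0.066 with array weights, -0.011 with P28 as adult, -0.015 with P8 alone, -0.52 with 6 weeks alone, and -0.22 to 0.40 without single libraries. None of the 40 called genes changed direction, which their choice by large changes in the same libraries all but fixed. The depth of P8 input 2 limits low genes, and 2 libraries per group at 3 of the 4 ages limit every call.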
